A study of Mus musculus with 6 samples.

Results

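A group of 10 transcription and splicing factors that set or oppose epithelial identity was followed in mouse lung buds that carried the DKO genotype and in control lung buds. They were the 3 Grainyhead-like factors Grhl1, Grhl2 and Grhl3, the zinc finger factors Ovol1 and Ovol2, the splicing proteins Esrp1 and Esrp2, the ETS factors Elf3 and Ehf, and the opposing repressor Zeb1. These 10 genes were taken as a list from 19938 genes measured, and each had 1 array probe set of its own. The list was chosen with earlier results of these data known. Whole buds were dissected from embryos at E11.5. The DKO samples had the genotype written as Shhcre:Hdac1fl/fl; Hdac2 fl/fl, and the control samples carried Shhcre without the floxed alleles. Both groups therefore had the Shhcre allele, on a mixed background of C57BL/6, 129X1 and 129S1, with 3 Affymetrix MoGene 1.1 ST arrays per group. Shhcre places Cre recombinase under the Sonic hedgehog locus, which is active in the lung epithelium, so the mesenchyme, vessels and blood in the same sample are not its main site of action. The labels call the samples biological replicates without saying how many embryos each holds, so the tests speak for the scatter among these samples.

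Epithelial cells hold their shape and contacts partly through a small set of nuclear regulators. Grainyhead-like factors activate genes of cell junctions, Ovol factors repress mesenchymal genes, and Esrp proteins direct splicing towards epithelial isoforms, among them the isoform of the receptor Fgfr2 that binds Fgf10. Zeb1 and its relative Zeb2 act in the other direction: they bind E-box sequences and repress genes such as Cdh1, and they stand in mutual repression with Grhl2, Ovol2 and the microRNAs of the miR-200 family. In the lung, Grhl2 is known as a regulator of epithelial shape and differentiation.

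The sequences through which Zeb transcripts are recognised are short. The miR-200 family falls into 2 groups by its seed, the stretch from base 2 to base 8 that pairs with a target, and miR-205, which also targets Zeb transcripts, has a seed of its own. The mature forms are given here because they stand opposite Zeb1, and the genes of all but miR-429 were measured, with the seed in capitals (RefSeq, GRCm38.p6).
miR-200a-3p: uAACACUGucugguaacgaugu
miR-141-3p: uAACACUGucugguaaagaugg
miR-200b-3p: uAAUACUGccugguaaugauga
miR-200c-3p: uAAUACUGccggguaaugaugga
miR-429-3p: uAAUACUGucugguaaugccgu
miR-205-5p: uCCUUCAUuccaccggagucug

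The promoter windows run from 250 bases before to 50 bases after the start of a gene (RefSeq, GRCm38.p6), and a window was matched for 4 of the 10 regulators (Grhl1, Grhl3, Ovol2 and Elf3). They were searched on both strands for CACCTG, an E-box form bound by Zeb factors, and for AACCGGTT, a palindromic Grainyhead site. The E-box was found in 2 of the 5 windows of these regulators (Grhl1 has 2 windows) and in 9 of 15 windows of 13 epithelial genes linked to Grainyhead factors, and 20.2% of all 32851 windows hold it. The shares were not adjusted for base composition. The Grainyhead site was in none of these windows, and 0.146% of all windows hold it. Elf3, Grhl3 and Rab25 are shown because Elf3 and Rab25 had lower values in DKO and Grhl3 did not separate the groups, while all 3 windows hold the E-box, which is in capitals. The Elf3 window (chr1:135258423-135258722, minus strand) has 1 E-box, 140 bases before the start. That of Grhl3 (chr4:135573583-135573882, minus strand) has 1 at 19 bases before and 1 at 8 bases after the start, and that of Rab25 (chr3:88548230-88548529, minus strand) has them 64 and 53 bases before the start. These matches describe letters and do not show binding.
Elf3: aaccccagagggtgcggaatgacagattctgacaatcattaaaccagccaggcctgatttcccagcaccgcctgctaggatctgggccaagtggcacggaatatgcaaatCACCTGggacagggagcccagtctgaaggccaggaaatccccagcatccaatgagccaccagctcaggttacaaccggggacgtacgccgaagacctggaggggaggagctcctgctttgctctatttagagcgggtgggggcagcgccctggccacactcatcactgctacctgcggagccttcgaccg
Grhl3: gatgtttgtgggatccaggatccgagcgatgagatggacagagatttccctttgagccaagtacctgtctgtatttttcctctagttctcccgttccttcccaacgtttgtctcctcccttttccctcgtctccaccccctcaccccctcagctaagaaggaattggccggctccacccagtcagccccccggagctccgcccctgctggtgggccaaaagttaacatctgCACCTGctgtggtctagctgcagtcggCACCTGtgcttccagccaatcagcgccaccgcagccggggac
Rab25: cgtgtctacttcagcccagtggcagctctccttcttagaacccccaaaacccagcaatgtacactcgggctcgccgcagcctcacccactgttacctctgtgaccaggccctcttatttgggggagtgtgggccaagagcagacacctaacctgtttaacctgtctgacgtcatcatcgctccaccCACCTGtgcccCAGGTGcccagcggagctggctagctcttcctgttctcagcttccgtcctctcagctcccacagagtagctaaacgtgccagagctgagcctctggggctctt

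Of the 10 regulators, 1 fell in the DKO buds, 0 rose and 9 did not pass an adjusted p of 0.05 (limma, Benjamini-Hochberg over all genes). Over all genes 2.41% passed, 1.38% lower and 1.03% higher in DKO. All 3 DKO values lay below all 3 control values for 4 regulators, Grhl2, Esrp1, Esrp2 and Elf3, and lay above them for 0, against 10.4% and 8.36% of all genes. The same 4 had an unadjusted p under 0.05, which 12.8% of all genes reached. The median change over the 10 was -0.04 on the log2 scale (DKO minus control), beside 0.00 over all genes, and the groups overlapped for the other 6 regulators. A lower value of an epithelial gene in whole buds can reflect fewer epithelial cells or less RNA in each, and these cannot be told apart here.

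**Figure D1:**
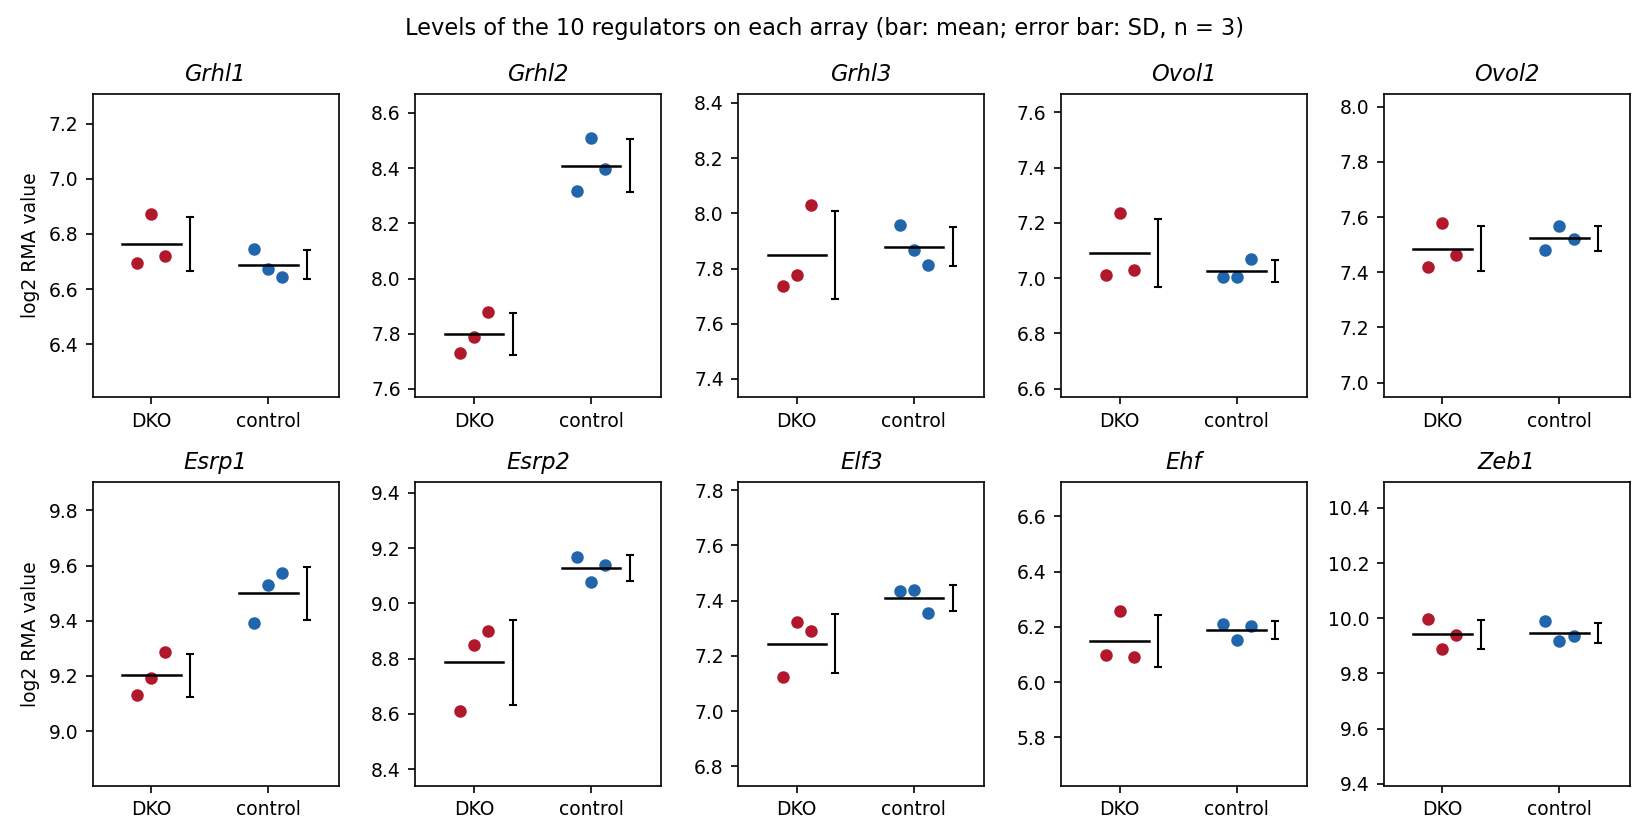
Log2 RMA value of each of the 10 regulators on each array, with the 3 DKO arrays left and the 3 control arrays right, replicates 1 to 3 from left to right, and every panel spanning the same log2 range (bar: mean; error bar: SD, n = 3). The groups are apart for Grhl2, Esrp1, Esrp2 and Elf3, and the widest gap is that of Grhl2, with means of 7.80 in DKO and 8.41 in control.

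Grhl2 was the 1 Grainyhead-like factor that fell. Its log2 level was 7.73, 7.79 and 7.88 in DKO 1 to 3, against 8.32, 8.51 and 8.40 in control 1 to 3. The highest DKO value lay well under the lowest control value, and the gap between the groups was wider than the range within either. The mean was 7.80 ± 0.07 in DKO and 8.41 ± 0.10 in control (SD, n = 3 each), a log2 change of -0.61 (SE 0.07, 95% limits -0.76 and -0.46), or 1.53-fold lower (limma adjusted p = 0.00211). Counted from the most negative change, it ranked 58 of 19938 genes. The call held without any 1 of the 6 arrays, with an adjusted p of 0.00216 to 0.0163 and changes of -0.66 to -0.56, and was lost with ordinary least squares, which does not share the spread between genes (adjusted p = 0.116).

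The other members of the family did not separate the groups. Grhl1, known in mouse for the anchorage of hair and for desmosomal genes, had levels of 6.70, 6.87 and 6.72 in DKO 1 to 3 and 6.75, 6.67 and 6.64 in control 1 to 3. Its change was 0.08 (SE 0.06, 95% limits -0.07 and 0.22, adjusted p = 0.726). Grhl3, which is needed for the skin barrier and for closure of the neural tube in mouse, had 7.74, 7.78 and 8.03 in DKO 1 to 3 and 7.96, 7.87 and 7.81 in control 1 to 3, with DKO 3 above every control. Its change was -0.03 (SE 0.08, 95% limits -0.22 and 0.15, adjusted p = 0.935). The intervals of Grhl1 and Grhl3 do not reach the change of Grhl2, but the probe of Grhl1 was dim, which limits what its flat values show.

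A comparison within the family, chosen after the values were seen, took the difference between 2 relatives on each array, after Grhl2 had already passed. Grhl2 minus Grhl1 shifted by -0.69 in DKO against control, with DKO arrays at -0.81 to -0.56 and control arrays at -0.15 to 0.12 as deviations from the control mean. Grhl1 was dim (mean level 6.73) and its own change was 0.08, so this difference adds little to the values of Grhl2. Grhl2 minus Grhl3 shifted by -0.58, with DKO arrays at -0.68 to -0.52 and control arrays at -0.17 to 0.11. In an exact permutation test over the 20 ways of labelling the arrays (two-sided), each gave p = 0.1, the smallest that 3 against 3 arrays can give (adjusted p = 0.125 over 5 such pairs). The DKO and control arrays did not overlap in either difference, in a design that cannot reach the 0.05 threshold by this test. The more distant relatives Tfcp2, Tfcp2l1 and Ubp1, of the CP2 branch of the family, had changes of 0.08, -0.03 and -0.01, and limma called 0 of the 3 (0 with an unadjusted p under 0.05).

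Both Esrp genes had lower values in DKO, just short of the threshold. Esrp1 had log2 levels of 9.13, 9.19 and 9.29 in DKO 1 to 3, against 9.39, 9.53 and 9.57 in control 1 to 3. Esrp2 had 8.61, 8.85 and 8.90 in DKO 1 to 3, against 9.17, 9.08 and 9.14 in control 1 to 3. For both, the groups do not overlap and DKO 1 is the lowest array. The change of Esrp1 was -0.30 (SE 0.07, 95% limits -0.45 and -0.15, adjusted p = 0.0589), or 1.23-fold, and that of Esrp2 was -0.34 (SE 0.08, 95% limits -0.52 and -0.17, adjusted p = 0.0615), or 1.27-fold. Esrp2 minus Esrp1 shifted by -0.04, and its DKO arrays (-0.15 to 0.03) overlapped its control arrays (-0.08 to 0.15, exact permutation p = 0.7). With 3 against 3 arrays this test cannot give a p under 0.1, so it cannot decide whether the 2 genes differ. Both genes passed with an intensity trend in the variance (adjusted p = 0.0217 for Esrp1 and 0.0248 for Esrp2), with array weights (0.0266 and 0.0187), and when the dimmest 30% (0.0357 and 0.0385) or 50% (0.0219 and 0.0244) of genes were left out. Esrp2 also passed without DKO 2 (0.0361), and Esrp1 with the replicate block (0.0435). Each gene thus passed in 5 of 17 other settings. The adjusted p was highest with ordinary least squares (0.281 for Esrp1 and 0.315 for Esrp2). It was 0.171 and 0.187 over all probes, and 0.242 and 0.217 without control 3.

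**Figure D2:**
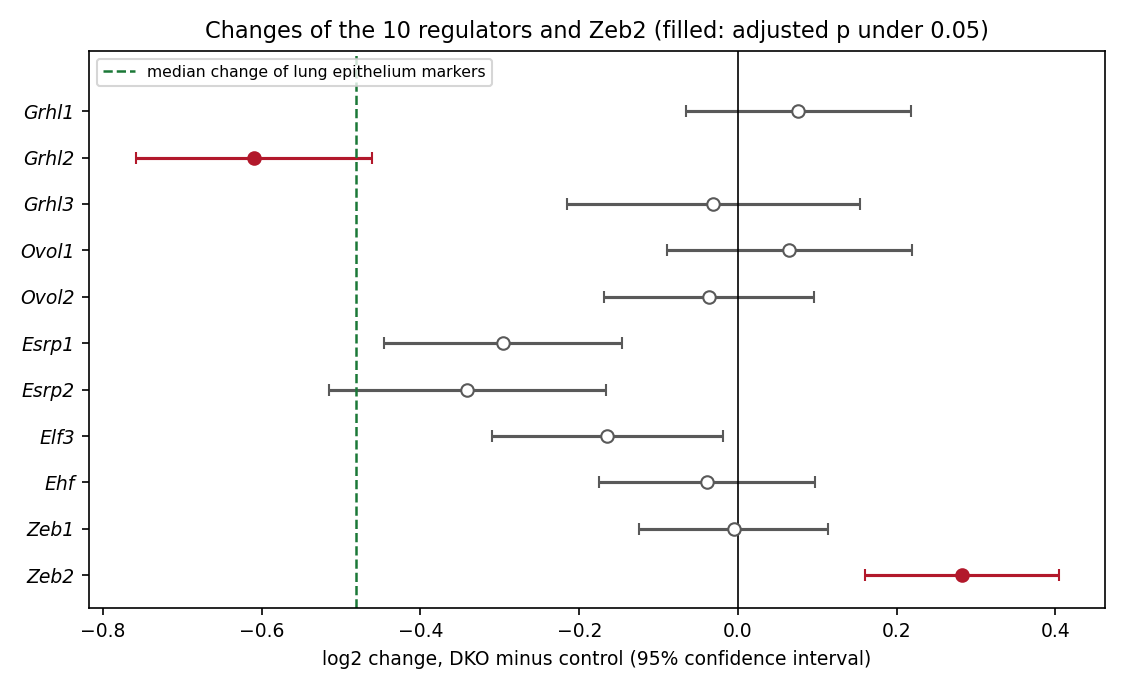
Log2 change, DKO minus control, with its 95% confidence interval for the 10 regulators and for Zeb2, the relative of Zeb1 (filled points: adjusted p under 0.05). The dashed line is the median change of 18 lung epithelium markers, at -0.48. Grhl2 at -0.61 and Zeb2 at 0.28 are the filled points, and the interval of Zeb1 runs from -0.12 to 0.11.

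The 2 epithelial ETS factors were dim on the array, and neither passed. Elf3, a factor of simple epithelia, had log2 levels of 7.12, 7.32 and 7.29 in DKO 1 to 3, against 7.44, 7.44 and 7.35 in control 1 to 3. The groups did not overlap, but DKO 2 and control 3 lay only a few hundredths apart. Its change of -0.16 (SE 0.06, 95% limits -0.31 and -0.02) did not pass (adjusted p = 0.315). Ehf, its relative, had 6.10, 6.26 and 6.09 in DKO 1 to 3 and 6.21, 6.15 and 6.20 in control 1 to 3, with a change of -0.04 (SE 0.06, 95% limits -0.17 and 0.10, adjusted p = 0.875). DKO 2 was the highest of all 6 arrays for Ehf. Among 17 other ETS factors, 1 fell, 0 rose and 16 did not pass, with a median change of -0.04. The one that fell was Etv5, a target of FGF signalling in the distal epithelium (-0.34, SE 0.07, adjusted p = 0.0366), and its call was lost without any 1 of DKO 1, DKO 3 and the 3 controls (adjusted p = 0.0646 to 0.171). Elf5, which belongs with Elf3 and Ehf to the epithelial branch of the ETS family, had 6.79, 6.93 and 6.84 in DKO and 7.12, 7.27 and 7.04 in control, and its change of -0.29 did not pass (adjusted p = 0.0707).

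Ovol1 and Ovol2, repressors that hold back mesenchymal genes in epithelia, showed no detectable change. Ovol1 had log2 levels of 7.01, 7.23 and 7.03 in DKO 1 to 3 and 7.003, 7.004 and 7.07 in control 1 to 3, with a change of 0.06 (SE 0.07, 95% limits -0.09 and 0.22, adjusted p = 0.798). Ovol2 had 7.42, 7.58 and 7.46 in DKO 1 to 3 and 7.48, 7.57 and 7.52 in control 1 to 3, with a change of -0.04 (SE 0.06, 95% limits -0.17 and 0.10, adjusted p = 0.882). In both genes DKO 2 was the highest array, and without DKO 2 the change of Ovol1 was -0.01. Ovol2 minus Ovol1 shifted by -0.10, with DKO arrays at -0.15 to -0.06 and control arrays at -0.05 to 0.07 (exact permutation p = 0.1, adjusted p = 0.125 over the 5 pairs). This pair too was chosen after the values were seen, and 0.1 is the smallest p that the test can give.

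Several of these regulators were dim, which limits what their flat values show. As a description of probes for genes with no known use in lung, the mean level of 1027 olfactory receptor genes had a median of 5.26 and a 95th centile of 7.01. Grhl1 (mean over all arrays 6.73) and Ehf (6.17) lay under that centile, and Ovol1 (7.06), Elf3 (7.33) and Ovol2 (7.504) lay not far above it. Grhl3 (7.86) and Grhl2 (8.10) were higher, and Esrp2 (8.96), Esrp1 (9.35) and Zeb1 (9.94) were brighter than the median gene. Because probes differ in how brightly they bind, these levels do not rank the genes by abundance. On DKO 2, where Grhl1, Ovol1, Ovol2 and Ehf had their highest values, the olfactory receptor genes also stood 0.10 above their own mean over all arrays, against -0.06 to 0.01 on the other 5 arrays. The part of this shift in the values of the dim regulators was not tested.

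Zeb1, the opposing repressor, showed no detectable change. Its log2 level was 9.997, 9.89 and 9.94 in DKO 1 to 3 and 9.99, 9.92 and 9.94 in control 1 to 3, and the 2 sets of values ran over nearly the same range. The change was -0.01 (SE 0.05, 95% limits -0.12 and 0.11, adjusted p = 0.982), the narrowest interval among the 10. These are values of whole buds, so they do not show Zeb1 in the epithelium alone. Zeb2, the paralog of Zeb1, rose. Zeb2 had 11.26, 11.16 and 11.24 in DKO 1 to 3, against 10.89, 10.94 and 10.98 in control 1 to 3, a change of 0.28 (SE 0.05, 95% limits 0.16 and 0.40, adjusted p = 0.0318), or 1.22-fold higher. Every DKO array lay above every control. The Zeb2 call was lost without any 1 of DKO 1, DKO 3 and the 3 controls (adjusted p = 0.0844 to 0.163). Zeb2 minus Zeb1 shifted by 0.29, with DKO arrays at 0.28 to 0.31 and control arrays at -0.09 to 0.05 (exact permutation p = 0.1, adjusted p = 0.125 over the 5 pairs). This pair was also chosen after the values were seen, and 0.1 is the smallest p that the test can give. Zeb1 itself moved by -0.01, so the difference adds little to the values of Zeb2.

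Other transcription factors known to oppose epithelial identity moved in both directions. Of the 10 measured, Zeb2 among them, 2 rose, 1 fell and 7 did not pass, with a median change of -0.08. Snai2, a zinc finger repressor of the Snail family, had 12.08, 12.07 and 12.001 in DKO 1 to 3, against 11.81, 11.69 and 11.81 in control 1 to 3, and rose 1.22-fold (0.28, SE 0.06, adjusted p = 0.0352). Its relatives Snai1 (-0.17) and Snai3 (-0.04) did not pass. Twist2, a basic helix-loop-helix factor of mesenchyme, had 9.57, 9.65 and 9.73 in DKO and 9.96, 9.92 and 9.90 in control, and fell (-0.28, SE 0.06, adjusted p = 0.0395), while Twist1 stood at -0.11. The calls of Snai2 and Twist2 were each lost without any 1 of DKO 1, DKO 3 and the 3 controls (adjusted p = 0.0695 to 0.159 for Snai2 and 0.0505 to 0.187 for Twist2). Foxc2 had the most negative change of the list and did not pass (-0.46, SE 0.11, adjusted p = 0.0698). Of 12 genes of the mesenchymal state, among them Vim, Cdh2, Fn1 and the collagens, limma called 0 (1 with an unadjusted p under 0.05, Cdh2 at 0.14), and the changes ran from -0.09 to 0.14.

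**Figure D3:**
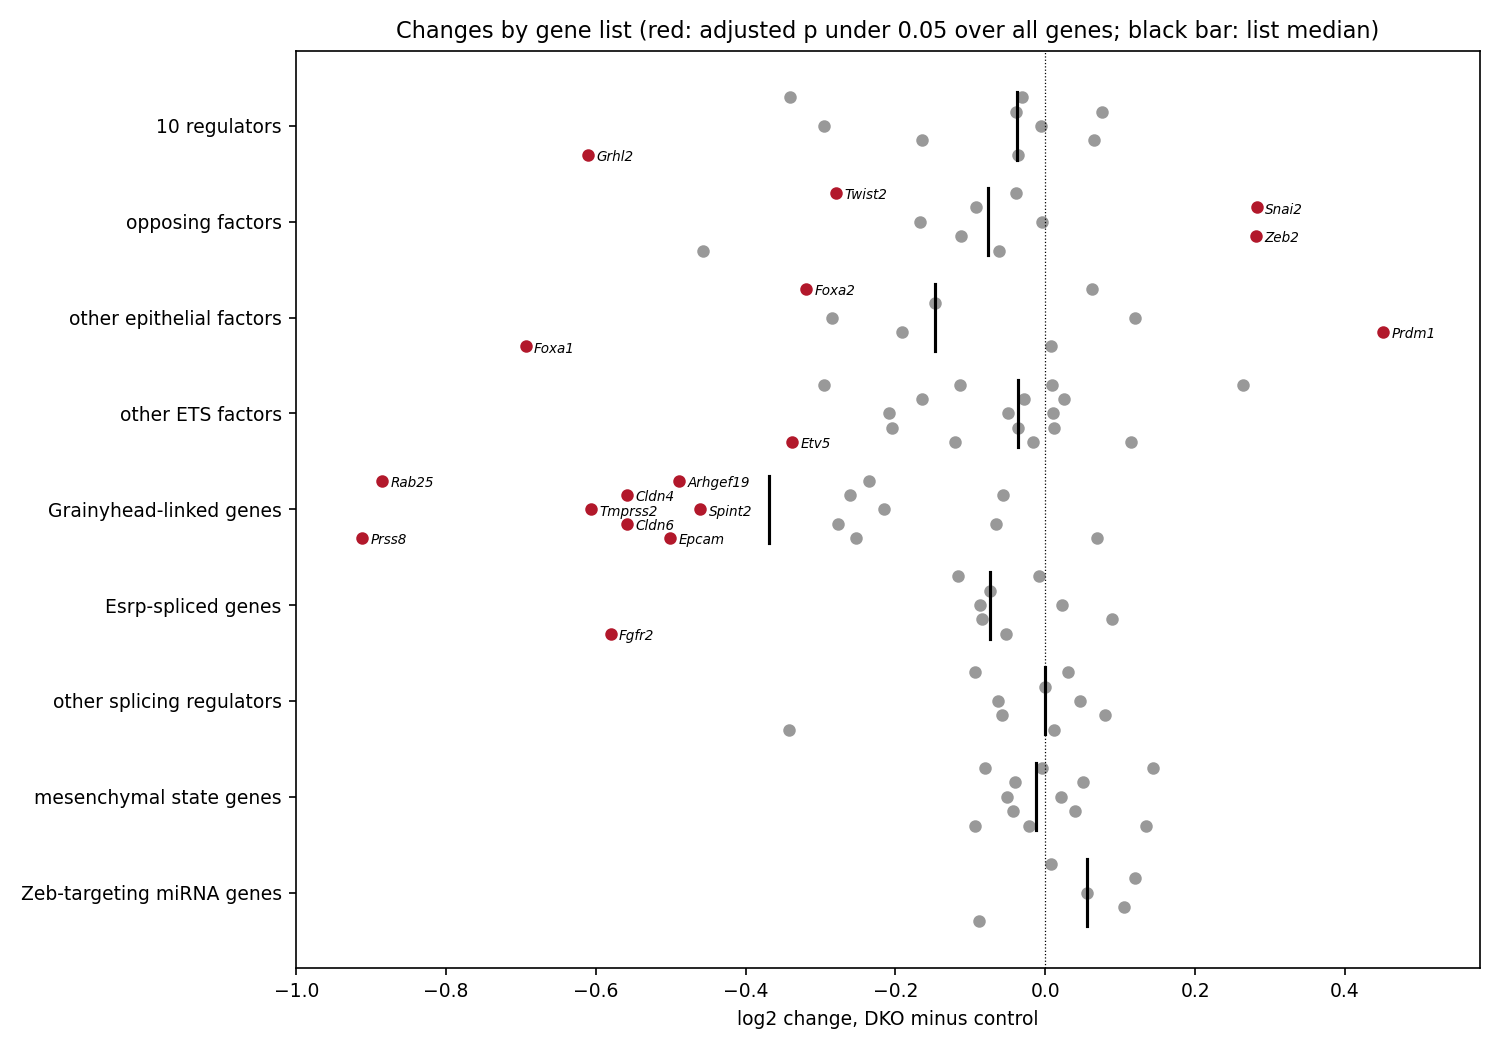
Log2 change, DKO minus control, of every measured gene of 9 lists (x axis), one row per list, with points spread vertically for legibility (red: adjusted p under 0.05 over all genes, named; black bar: list median). Among these 9 lists the genes linked to Grainyhead factors lie lowest, with a median of -0.37. The lung epithelium markers (median -0.48) and smooth muscle markers (median -0.60), which are not drawn here, lay lower still. The opposing factors hold named genes on both sides of 0.

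The microRNA genes that target Zeb transcripts showed no detectable change. Mir200a had log2 levels of 7.28, 7.49 and 7.37 in DKO 1 to 3 and 7.36, 7.39 and 7.36 in control 1 to 3. Mir200b had 5.48, 5.67 and 5.47 in DKO 1 to 3 and 5.68, 5.58 and 5.62 in control 1 to 3. Mir141 and Mir200c, neighbours on chromosome 6, had changes of 0.06 and 0.11, and Mir205 had 0.12. Of these 5 genes limma called 0 (0 with an unadjusted p under 0.05), and the groups overlapped for all 5. In every one but Mir205, DKO 2 was the highest DKO array, and the levels of Mir141 (5.44), Mir200b (5.58), Mir205 (6.02) and Mir200c (6.81) lay under the olfactory receptor 95th centile. The labelling began from a poly(T) primer, so mature microRNAs were not what these probes read. Mir429 was not analysed here.

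Genes of epithelial junctions, membrane proteases and their inhibitors, among them Cldn4 and Rab25 that Grhl2 is known to activate, were mostly lower. Of 16 measured, 8 fell, 0 rose and 8 did not pass, with a median change of -0.37. Prss8, a membrane-anchored serine protease, had 8.23, 8.37 and 8.39 in DKO 1 to 3, against 9.17, 9.33 and 9.22 in control 1 to 3, and fell 1.88-fold (-0.91, SE 0.06, adjusted p = 0.000256). Rab25, a small GTPase of apical recycling whose promoter window is printed above, had 7.61, 7.68 and 7.77 in DKO 1 to 3, against 8.49, 8.66 and 8.56 in control 1 to 3, and fell 1.85-fold (-0.89, SE 0.06). In both genes the groups lie far apart and the arrays within a group are close. The tight junction gene Cldn4 (-0.56, SE 0.07, adjusted p = 0.00556), Cldn6 (-0.56, SE 0.09) and the transmembrane protease Tmprss2 (-0.61, SE 0.09, adjusted p = 0.00917) fell, as did the adhesion gene Epcam (-0.50, SE 0.06), the protease inhibitor Spint2 (-0.46, SE 0.08) and Arhgef19, a gene linked to Grhl3 (-0.49, SE 0.08, adjusted p = 0.0115). Without control 2 the calls of Cldn6, Tmprss2, Spint2 and Arhgef19 were lost, as were those of Cldn6, Spint2 and Arhgef19 without control 3, Spint2 without control 1 and Arhgef19 without DKO 3 (adjusted p = 0.0501 to 0.0829).

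The other 8 genes of this list did not pass. Cdh1, the E-cadherin gene that Grhl2 activates and Zeb factors repress, had 9.10, 9.28 and 9.24 in DKO 1 to 3, against 9.33, 9.45 and 9.48 in control 1 to 3. Its groups were separate, and its change of -0.22 (SE 0.07) did not pass (adjusted p = 0.168). Spint1 (-0.25, adjusted p = 0.0779) and Lsr (-0.26, adjusted p = 0.0687) did not pass either, and Tgm1, a target of Grhl3 in skin, stood at 0.07 with overlapping groups. Of the 16, 6 are also on the list of lung epithelium markers (37.5% of this list and 33.3% of the markers), so the 2 lists are not separate observations.

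Among transcription factors of epithelia outside the 10, 2 of 9 fell and 1 rose, and 6 did not pass. Foxa1, a pioneer factor of endodermal epithelia, had 9.72, 9.99 and 9.93 in DKO 1 to 3, against 10.54, 10.59 and 10.59 in control 1 to 3, and fell 1.62-fold (-0.69, SE 0.07, adjusted p = 0.00184). Its relative Foxa2 fell 1.25-fold (-0.32, SE 0.06, adjusted p = 0.0274), a call lost without DKO 1 or any 1 control (adjusted p = 0.0604 to 0.141). Prdm1, a zinc finger repressor, had 7.28, 7.36 and 7.27 in DKO 1 to 3, against 6.74, 6.88 and 6.93 in control 1 to 3, and rose (0.45, SE 0.06, adjusted p = 0.0074). Its 3 control values lay under the olfactory receptor 95th centile, so no fold is given. Trp63, the factor of basal and squamous epithelia, and Klf4 and Klf5 had changes of 0.06, 0.01 and 0.12 and did not pass. Tfap2c (-0.28, adjusted p = 0.0623, at a dim mean level of 6.16), Nkx2-1 (-0.19) and Tfap2a (-0.15) did not pass either. For Tfap2c and Nkx2-1 every DKO array lay below every control. The median change of the 9 was -0.15, and 5 had an unadjusted p under 0.05.

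Transcripts that Esrp proteins splice were measured as whole genes, so the isoforms themselves were not seen. Of 9 such genes 1 fell, 0 rose and 8 did not pass, with a median of -0.07. Fgfr2, the receptor whose epithelial exon depends on Esrp proteins, had 10.32, 10.35 and 10.51 in DKO 1 to 3, against 10.94, 11.02 and 10.96 in control 1 to 3, and fell 1.5-fold (-0.58, SE 0.06, adjusted p = 0.00211). Enah (-0.08), Cd44 (-0.05) and Ctnnd1 (0.09), which Esrp proteins also splice, had overlapping groups. Of 9 other splicing regulators that differ between epithelial and mesenchymal cells, limma called 0 (1 with an unadjusted p under 0.05). That one was Rbm47, with 7.23, 7.47 and 7.48 in DKO and 7.67, 7.83 and 7.71 in control (-0.34, SE 0.08, adjusted p = 0.0635), and the mesenchymal regulators Qk, Rbfox2 and Mbnl1 stood between 0.00 and 0.03.

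The profile over the 6 arrays that lay nearest to that of Grhl2 was the profile of Fgfr2, at a root mean square distance of 0.04 in log2 units after each gene was centred on its mean. Mal2, Pkhd1, Krt8 and Lrrn3 followed, with changes of -0.58, -0.59, -0.56 and -0.56. Nearest to Esrp1 were Tfap2c, Wfdc2, Shtn1, Nav2 and Tlr1, with changes of -0.33 to -0.24, of which Wfdc2 (adjusted p = 0.0440) and Shtn1 (adjusted p = 0.0476) passed. These likenesses rest on 6 arrays that fall into 2 groups, and all of these genes share the difference between those groups.

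The regulators were set beside the epithelium as a whole. Of 18 markers of lung epithelium, 12 fell, 0 rose and 6 did not pass, with a median change of -0.48, and their mean log2 level was 9.13 to 9.26 in DKO and 9.71 to 9.82 in control. The most negative changes of the 18 were those of Sftpc (-2.37) and Sox2 (-1.17), and Krt19 stood highest at 0.08. Nkx2-1, the defining factor of lung epithelium, was bright in every sample (10.20, 10.44 and 10.44 in DKO and 10.53, 10.60 and 10.53 in control). Every DKO array lay below every control for Nkx2-1, and its change of -0.19 did not pass (adjusted p = 0.299). Relative to the marker median on the same array, Grhl2 was at -0.11, -0.24 and -0.11 in DKO 1 to 3, against -0.06, 0.06 and -0.01 in control 1 to 3, so it was below the marker median on every DKO array. The changes of single markers ran from -2.37 to 0.08, and Grhl2 lies within that range. Esrp1 stood at 0.20, 0.07 and 0.21 in DKO and -0.08, -0.01 and 0.08 in control, and Esrp2 at 0.05, 0.10 and 0.19 in DKO and 0.07, -0.09 and 0.01 in control. The groups overlap for both Esrp genes. The other 6 epithelial regulators lay above the marker median on every DKO array, by 0.28 to 0.59. These are the dim probes described above together with Grhl3, and the part of dimness in that difference was not tested. The change of Grhl2 minus the marker median was -0.13, and it was -0.25 against the mean of Epcam and Cdh1, whose own mean change was -0.36. Of the 18 markers, 6 are also on the list of genes linked to Grainyhead factors, Epcam and Cdh1 among them. Neither reference is therefore independent of genes that Grhl2 may act on.

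**Figure D4:**
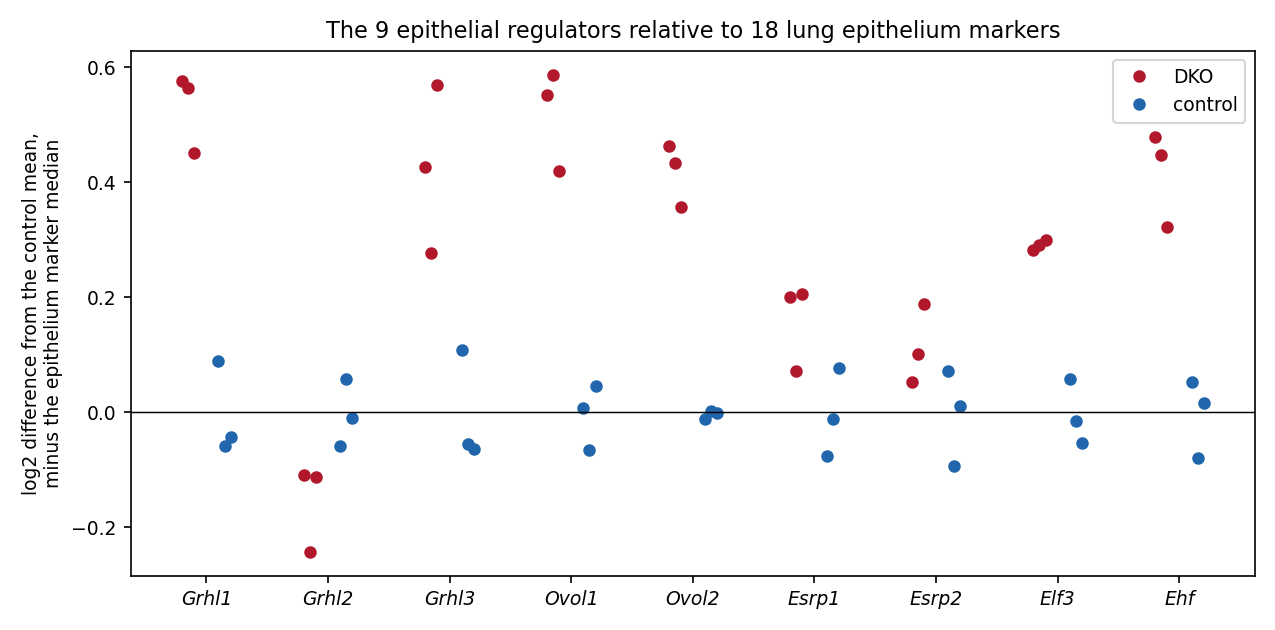
Log2 difference of each epithelial regulator from its control mean, minus the median of the same difference over 18 lung epithelium markers on that array (y axis), for DKO and control arrays, replicates 1 to 3 from left to right. A value of 0 means that a gene moved with the marker median. Grhl2 lies below 0 on all 3 DKO arrays, the Esrp genes just above 0, and the other 6 higher.

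Markers of other tissues were read on the same arrays. The mean level of 11 mesenchyme markers was 10.77 to 10.82 in DKO and 10.77 to 10.81 in control, and 1 of them rose (Meox2). All 5 smooth muscle markers fell, with a median change of -0.60 and mean levels of 9.29 to 9.64 in DKO and 9.92 to 10.09 in control. Endothelium markers had mean levels of 10.04 to 10.23 in DKO and 9.98 to 10.02 in control, with 0 of 7 called (2 with an unadjusted p under 0.05). Mean levels were also higher on every DKO array for 5 cardiac muscle markers (8.66 to 8.82 in DKO and 8.37 to 8.49 in control), of which Myl7, a myosin light chain of the heart, rose (0.80, adjusted p = 0.00163). The 5 mesothelium markers were at 9.18 to 9.25 in DKO and 9.01 to 9.06 in control, and Upk1b rose (0.47, adjusted p = 0.00904). The 6 liver and thyroid markers were at 7.64 to 7.92 in DKO and 7.40 to 7.55 in control, and Alb, the albumin gene of liver, rose (0.96, adjusted p = 0.0294). The 5 erythroid markers were at 10.17 to 10.25 in DKO and 10.01 to 10.16 in control, with 0 called (2 with an unadjusted p under 0.05). Leukocyte markers were lower on every DKO array (8.22 to 8.32 in DKO and 8.41 in every control), and limma called 0 of 5 (3 with an unadjusted p under 0.05). Neural crest and neuron markers overlapped between the groups (7.501 to 7.675 in DKO and 7.62 to 7.77 in control), with 0 of 4 called (2 with an unadjusted p under 0.05). The part of these other tissues in the lower values of Grhl2 and the Esrp genes was not tested. Zeb2 and Snai2 are expressed in mesenchyme and vessels, and the part of these tissues in their rise was not tested. Hdac1 had a change of -0.28 (adjusted p = 0.0193) and Hdac2 of -0.04 (adjusted p = 0.845), and where their probes lie relative to the deleted exons was not known here. The arrays had medians of 7.87 to 7.89, and DKO 2 had the widest scatter around its group mean (SD 0.105, against 0.0596 to 0.0867 on the other 5).

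**Figure D5:**
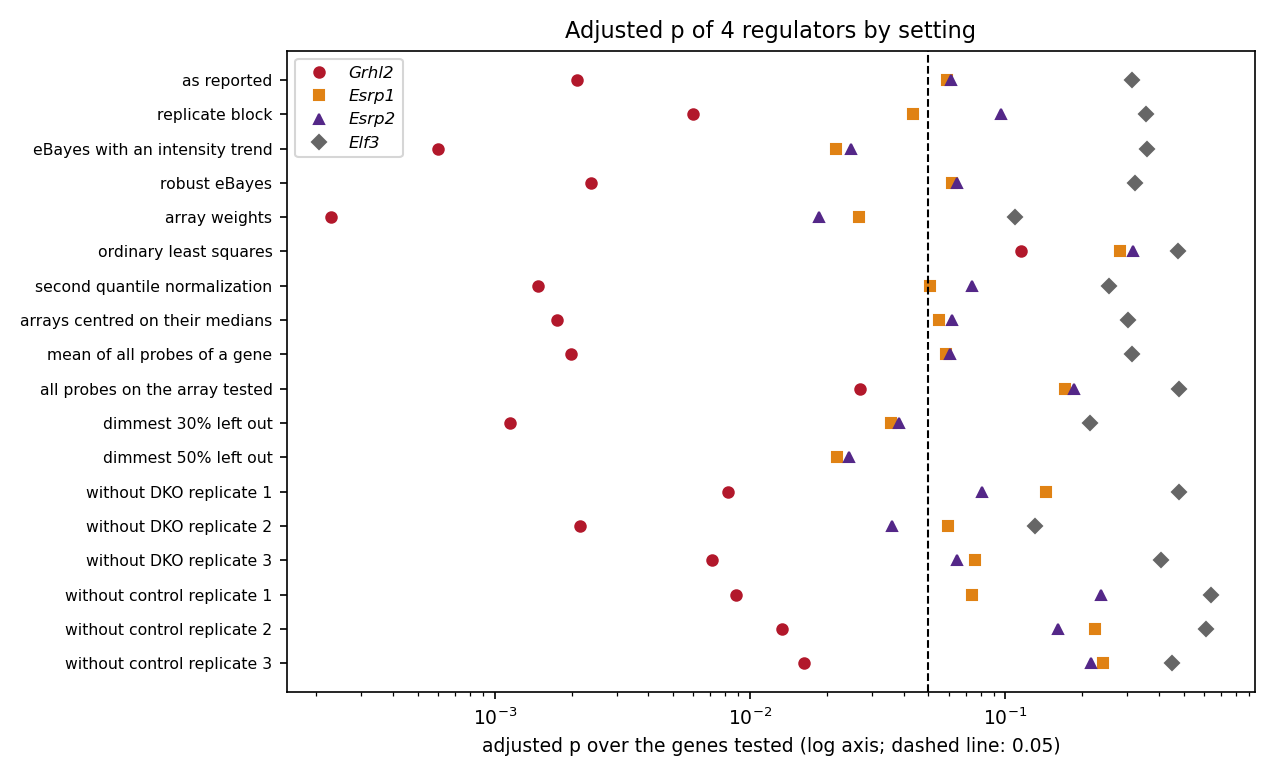
Adjusted p (x axis, log scale) of Grhl2, Esrp1, Esrp2 and Elf3 as reported and under 17 other settings, one row each; Grhl2 and Elf3 have no point where the dimmest 50% of genes were left out, because both are among them. Grhl2 stays left of the dashed line at 0.05 except with ordinary least squares, Esrp1 and Esrp2 lie on both sides of it, and Elf3 stays right of it.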

How the data were processed

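RNA (100 ng per sample) was amplified from a poly(T) primer, biotin-labelled and hybridised, per the labels' protocols. The deposited table held 1 log2 value for each of 35556 probe sets on each of the 6 arrays, made by the authors with oligo and RMA, with limma also named, per the submitters' processing notes. Versions, genome build and settings were not given in the sources used here. The table does not state its log base, and base 2 was taken from RMA and from values of 3.42 to 14.27. RMA makes the arrays' distributions alike, so a change common to all genes cannot be seen, and the number of arrays limits the precision.

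Probe sets with exactly 1 gene in the platform annotation (21789, against 1621 with several and 12146 unnamed here) were reduced to the brightest per gene, which left 19938 genes. Names were updated by Entrez identifier against RefSeq (GRCm38.p6), with 0 symbols changed.

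Groups were taken from the sample titles and compared with limma 3.58.1 in R 4.3.3 (lmFit, eBayes, two-sided, group as the only term), with Benjamini-Hochberg adjustment over all genes and a threshold of 0.05. The fit was tested on simulated data. Same-numbered samples deviated from their group means with correlations of -0.06, 0.05 and 0.16, so the numbers were not taken as pairs. Alternatives covered the variance model, the normalization, the choice and filtering of probes, a replicate block and leaving out each array. The genes named were the 10 regulators, genes of the other lists, the 5 nearest profiles to Grhl2 and Esrp1, and Hdac1 and Hdac2. The members, the lists and the rule were chosen with earlier results of these data known.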

Additional observations from a re-analysis of the deposited data

How the results depend on the processing

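The count of 481 genes (206 higher, 275 lower in DKO) became 725 with an intensity trend, 2003 with array weights, 16 with ordinary least squares and 208 over all probes, and 197 to 811 when 1 array was left out, lowest without control 2 and highest without DKO 2. Without control 1 or control 3 it was 215, and without DKO 3 it was 317. The count of 1 regulator became 3 with an intensity trend, with array weights and without the dimmest 30% of genes (8 regulators tested), 2 without the dimmest 50% (3 tested) and 0 with ordinary least squares (3 with an unadjusted p under 0.05). It was 1 to 2 when 1 array was left out, with 2 without DKO 2. With the replicate block, 406 genes and 2 regulators passed, the second being Esrp1 (adjusted p = 0.0435), but the numbers do not pair the samples. Second quantile normalization, median centring, robust eBayes and averaged probes left the counts within 1.5 times. Grhl2, Esrp1, Esrp2 and Elf3 were below 0 in each setting in which they were tested, while the small changes of Grhl3, Ovol1 and Zeb1 took both signs. Of the alternatives for single regulators, 150 left the side of the threshold as it was, 10 brought Esrp1 or Esrp2 past it and 1 took Grhl2 back. For 22 genes that passed, from the transcription factor, epithelial and splicing lists and the lung epithelium markers, 296 alternatives kept the call and 73 lost it. Genes of the other tissue lists, the Hdac genes and the nearest profiles outside these lists were not followed through the alternatives. The cause of these shifts was not tested. The probes of Grhl1 and Ehf lay under the olfactory receptor 95th centile, so their flat values say least.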

Other observations

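Squamous and basal epithelia use several of the same regulators, and their markers were dim and did not pass. Of 6 such markers, Trp63, Krt5, Krt14, Krt15, Krt13 and Pax9, limma called 0 (1 with an unadjusted p under 0.05), with changes of -0.09 to 0.21. Pax9, a paired-box factor of the foregut, was the 1 whose DKO values all lay above the control values (0.21, SE 0.06, adjusted p = 0.163). Krt5 (0.02), Krt14 (0.16) and Krt15 (-0.06), keratins of basal cells, had overlapping groups, as did Trp63 (0.06).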
